A study of Mus musculus with 2 samples.

Results

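The NRF2 and antioxidant response genes described here were 10 of the 32285 genes in the files. They were chosen by name: Nfe2l2, which encodes NRF2, its repressor Keap1, and the target genes Gclc, Gclm, Slc7a11, Txnrd1, Srxn1, Prdx1, Nqo1 and Hmox1. Their mRNA was counted in every barcode with at least 8000 UMIs (unique molecular identifiers, which count captured mRNA molecules) and under 10% mitochondrial UMIs, by library and by cell group gated on marker genes. All 10 passed the filter on low values, a mean over the libraries of at least 0.5 CPM (a gene's UMIs divided by all UMIs of those cells, times 1000000), as did 12608 genes in all.

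NRF2 is a transcription factor whose activity is set mainly by its protein half-life. In unstressed cells KEAP1 binds it and hands it to the CUL3 ubiquitin ligase for degradation; oxidants or kinases can free it, and it then pairs with a small MAF protein in the nucleus and binds antioxidant response elements. Its target genes make glutathione, keep thioredoxin and peroxiredoxin reduced, detoxify quinones and break down heme, and in blood stem cells this program is known for limiting reactive oxygen species (ROS). Since the protein can change without its mRNA, the Nfe2l2 level below is not a measure of NRF2 activity.

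Droplet single cell RNA-seq with a 3′ kit was run on bone marrow (BM) LSKs, the lineage-negative cells bearing Sca-1 and c-Kit that contain the stem cells and early progenitors, from C57BL/6 mice 8 to 10 weeks old. Both libraries came from SCLtTA/BCR-ABL mice, in which tetracycline withdrawal turns on BCR-ABL in cells that use the SCL promoter, so BCR-ABL was shared and no library without it entered the comparison. One library was from mice with intact miR-142 (miR-142 WT CML, chronic phase in the study's terms) and 1 from mice lacking the Mir142 gene in all tissues (miR-142 KO CML, blast crisis in the study's terms). The study followed NRF2 and the ROS scavengers HO-1 (Hmox1) and NQO-1 (Nqo1) in these cells, and the comparison asks how the mRNA of the pathway differed with loss of miR-142.

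With 1 library per group no test could be run, and every 95% interval covers counting error alone and leaves out how mice differ. The cells numbered 5363 in miR-142 WT CML and 5458 in miR-142 KO CML, with a median of 19443 and 24182 UMIs per cell and a median mitochondrial share of 2.85% and 2.0%; 4 barcodes were shared. The host transcript of the deleted miRNA, Mir142hg, was at 1260 UMIs against 20, a log2 ratio of KO over WT of -6.17 (interval -6.89 to -5.54). The sort genes Kit and Ly6a (Sca-1) were detected in both, at 86.4 and 68.3, and 96.8 and 153 CPM. Cd34, which is not among the markers that define LSKs, was at 255 and 199 CPM. Markers of antibody-secreting cells stood apart, with all 4 detected in both libraries but a summed level of 3897 CPM in WT against 2.66 CPM in KO, and the 4 granule genes Elane, Prtn3, Ctsg and Ms4a3 summed to 4969 CPM in WT against 12788 CPM in KO.

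Because miR-142 was the deleted regulator, its mature sequences are given first, from RefSeq (GRCm38.p6, plus strand), with the seed, bases 2 to 8, in capitals. The 3p arm lies at chr11:87756903-87756925 and the 5p arm at chr11:87756867-87756887.
mmu-miR-142a-3p: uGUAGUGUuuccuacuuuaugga
mmu-miR-142a-5p: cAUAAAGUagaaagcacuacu

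The 7 letters that pair with these seeds, ACACTAC and ACTTTAT, were searched on the sense strand of the longest annotated 3′ untranslated region of each gene. For the 3p arm, 1 of the 10 genes (Slc7a11) held a match, against 6.81% of the 11544 tested genes with such a region. For the 5p arm, Nfe2l2, Slc7a11 and Prdx1 held 1 each, against 15.8% of tested genes. Keap1, Gclc, Gclm, Txnrd1, Srxn1, Nqo1 and Hmox1 held neither set of letters in that region. The region of Slc7a11 was 7364 bases long and that of Nfe2l2 448, where the median over tested genes was 1137. The 4 matches, with the pairing letters in capitals, lie at chr2:75675864-75675886 (minus strand) in Nfe2l2, chr3:50367220-50367242 and chr3:50368160-50368182 (minus strand) in Slc7a11, and chr4:116699553-116699575 (plus strand) in Prdx1. They are shown as the only matches found in these regions, and a match is a description, not a site shown to be used.
Nfe2l2 (5p letters): gcagaaacACTTTATaagtaact
Slc7a11 (3p letters): tcgcatacACACTACagattttt
Slc7a11 (5p letters): ctcaagaaACTTTATtttatttg
Prdx1 (5p letters): taaaaaggACTTTATtttcatga

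The second set of letters is the core of the antioxidant response element, TGACNNNGC, searched on both strands from 250 bases before to 50 bases after each annotated start. Promoter windows of 8 of the genes were matched by symbol (Hmox1 and Gclc had no entry), 10 windows in all. The core was held by 5 of the 8 genes, Gclm, Nfe2l2, Prdx1, Srxn1 and Txnrd1, and by 5 of the 10 windows. It was in 12.4% of all 32851 windows and 14.5% of the windows of tested genes. The windows of Keap1, Nqo1 and Slc7a11 did not hold these letters. The stretches around each core follow, in the direction of the gene and with the core or its reverse complement in capitals. They lie at chr3:122245407-122245447 (Gclm, plus), chr2:75704879-75704913 (Nfe2l2, minus), chr4:116685450-116685490 (Prdx1, plus), chr2:152105536-152105573 (Srxn1, plus) and chr10:82859098-82859138 (Txnrd1, plus).
Gclm: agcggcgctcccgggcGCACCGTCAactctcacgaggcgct
Nfe2l2: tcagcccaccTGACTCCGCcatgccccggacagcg
Prdx1: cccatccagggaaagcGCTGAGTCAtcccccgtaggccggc
Srxn1: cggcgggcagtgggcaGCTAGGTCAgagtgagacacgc
Txnrd1: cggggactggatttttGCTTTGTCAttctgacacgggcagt

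Across all cells the pathway did not move as a block. Slc7a11, the cystine importer, was 2.2-fold higher in miR-142 KO CML and Gclm, the modifier subunit of glutathione synthesis, 1.33-fold higher; Nqo1, a quinone reductase, was lower, at 0.416 of its WT level. The remaining 7 lay between 0.886 and 1.17 of their WT level. Past 1.5-fold with an interval off 0 were 1 gene higher (Slc7a11) and 1 lower (Nqo1), beside 4.56% of all tested genes higher and 14.5% lower, so the count of 2 in 10 was close to the share over all genes. Counting error alone separated 6 genes above 0, 3 below 0 and left 1, Gclc, on both sides of 0. Most genes were separated in this way at this depth. Of the 12608 tested genes, 3104 had an interval above 0, 6966 below 0 and 2538 on both sides. The median log2 ratio was 0.13 over the 10 genes and -0.13 over all tested genes, a shift that bears on every small ratio: with median-of-ratios size factors the medians were 0.21 and -0.06. With the cell groups, described below, weighted to equal shares in both libraries, 4.74% of all tested genes were called higher and 5.96% lower.

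**Figure D1:**
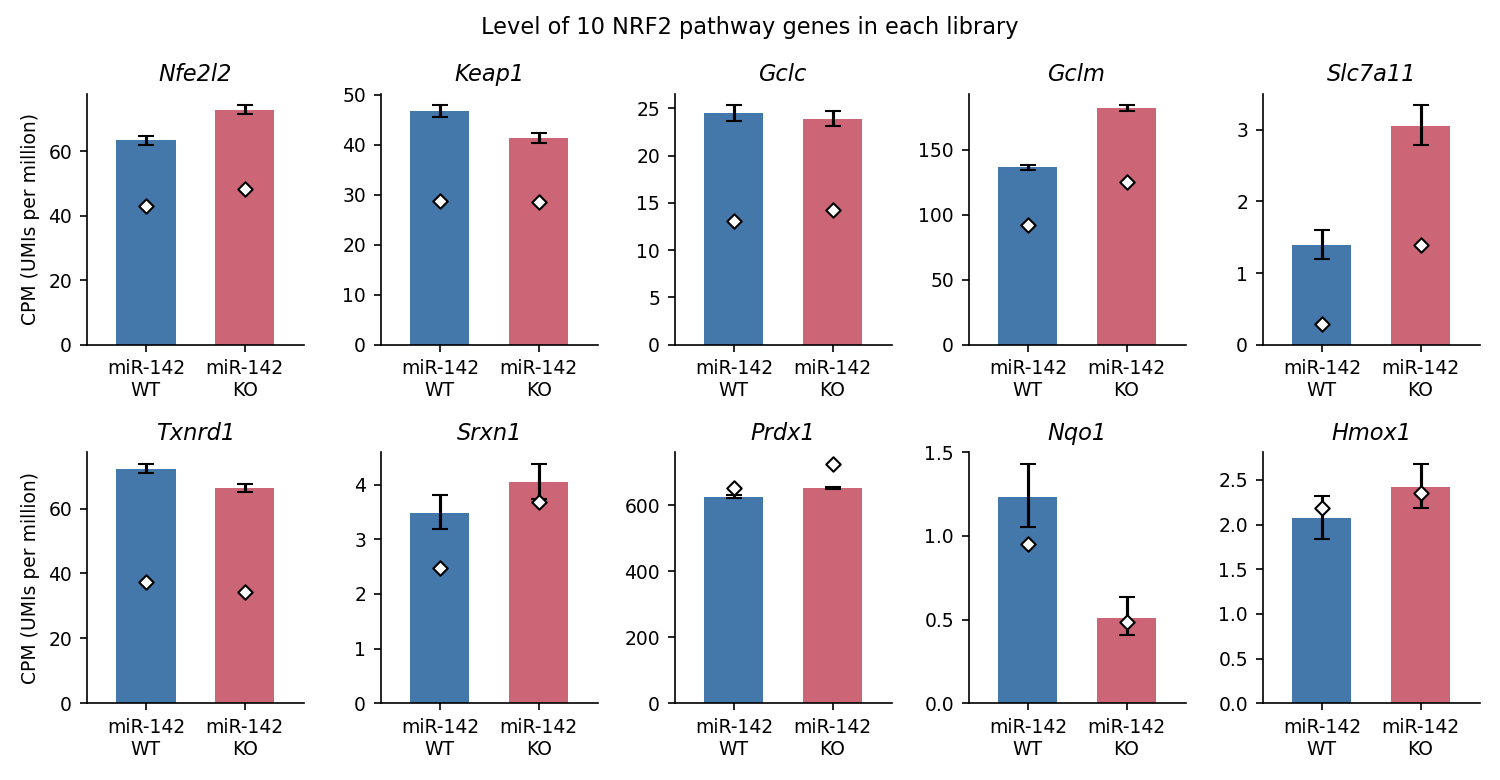
Level of each gene in CPM over all cells (vertical axes starting at 0) in miR-142 WT CML (blue) and miR-142 KO CML (red), 1 library each. Error bars are exact Poisson 95% intervals and white diamonds give the level in free RNA (barcodes of 10 to 100 UMIs); the bars stand apart most for Slc7a11 (1.39 and 3.05 CPM), Gclm (137 and 182 CPM) and Nqo1 (1.23 and 0.511 CPM).

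Nfe2l2 (chr2:75675513-75704641, minus strand, GRCm38) had 8747 UMIs in miR-142 WT CML, or 63.3 CPM (interval 62.0 to 64.6), and 11535 UMIs in miR-142 KO CML, or 72.8 CPM (71.5 to 74.1). The log2 ratio was 0.20 (0.16 to 0.24), above that of 84.7% of tested genes. The gene was widespread: after each cell was thinned at random to 8000 UMIs, so that depth was equal, 39.7% of WT cells (38.4% to 41.0%) against 44.0% of those in KO (42.7% to 45.4%) had a UMI, and 70.1% and 77.7% before thinning. In no library did a few cells carry it, since the 10 cells with most UMIs held 1.38% and 1.07% of its UMIs.

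The higher Nfe2l2 level was seen in each of the 6 gated groups that held at least 50 cells in both libraries. It was largest in HSC-like cells, gated on Hlf, Mecom, Procr and other stem cell genes, at 64.6 CPM in WT against 92.3 CPM in KO, a log2 ratio of 0.52 (0.29 to 0.73). Megakaryocyte-primed-like cells went from 55.5 to 76.7 CPM (0.47, 0.24 to 0.69). Lymphoid-primed-like cells had 65.8 and 83.6 CPM (0.35, 0.18 to 0.51), and ungated cells, which passed no lineage gate, 60.4 and 75.9 CPM (0.33, 0.23 to 0.43). In these 4 groups the library intervals did not overlap, nor did they in granule-high myeloid-like cells, gated on Elane, Prtn3, Ctsg and Ms4a3. The granule-high cells had 65.9 and 71.6 CPM (0.12, 0.06 to 0.18). Mast/basophil-like cells had 63.7 and 69.5 CPM with an interval that held 0 (-0.06 to 0.31), and the ratio was -0.06 when only cells that passed no other gate were kept. In the WT library the 6 groups could hardly be ordered, from 55.5 to 65.9 CPM, and in the KO library HSC-like cells were highest, though each level overlapped its neighbour in rank.

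Keap1 (chr9:21229730-21239361, minus strand), whose product marks NRF2 for degradation, had 6457 UMIs in WT (46.7 CPM, 45.6 to 47.9) and 6561 UMIs in KO (41.4 CPM, 40.4 to 42.4). The log2 ratio of -0.17 (-0.22 to -0.12) lay close to the median of all tested genes, with 45.5% of them below it. The gene was lower in KO in 6 of 6 groups, by -0.01 to -0.21, with the interval off 0 in granule-high cells alone (46.1 and 40.9 CPM). The smallest of these, in megakaryocyte-primed-like cells, turned to 0.06 with all gates at 2 times the UMIs and to 0.02 in cells that passed no other gate. The share of cells with a Keap1 UMI was lower in KO at equal depth, 30.8% (29.6% to 32.0%) against 27.8% (26.7% to 29.1%), whereas before thinning it was higher, 60.1% against 62.0%. The median UMIs per cell were higher in KO over all cells but lower in KO in 5 of the 6 groups. Keap1 was highest in megakaryocyte-primed-like cells of both libraries, at 53.0 and 52.6 CPM, level with HSC-like cells (52.9 and 47.0 CPM) within their intervals. Mast/basophil-like cells had the least Keap1 in both libraries, with 34.6 CPM in KO, but did not stand apart from every other group. Their KO interval overlapped those of lymphoid-primed-like and HSC-like cells. Their WT interval overlapped those of lymphoid-primed-like and granule-high cells.

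The gated groups differed in size between the libraries, which touches every ratio over all cells: in such sums fewer cells of a type and less RNA per cell cannot be told apart. Granule-high cells numbered 1042 in WT (19.4%) and 3169 in KO (58.1%), HSC-like cells 916 (17.1%) and 176 (3.22%), lymphoid-primed-like cells 754 (14.1%) and 327 (5.99%), and ungated cells 1891 (35.3%) and 905 (16.6%). Mast/basophil-like and megakaryocyte-primed-like cells were nearer in size, 315 and 375, and 332 and 288. The granule gate asks for 20 UMIs at equal depth; 1121 WT and 704 KO cells had 10 to 19 of them and 574 and 808 had 20 to 39, and cells of the mast/basophil-like group had a median of 8 and 23, and the part of free RNA or doublets in this was not tested. When the groups were weighted to the mean share of both libraries, the log2 ratio was 0.27 for Nfe2l2, -0.12 for Keap1, 0.24 for Gclm, 0.63 for Slc7a11 and -0.60 for Nqo1. Prdx1 changed sign under this weighting, from 0.06 to -0.04.

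**Figure D2:**
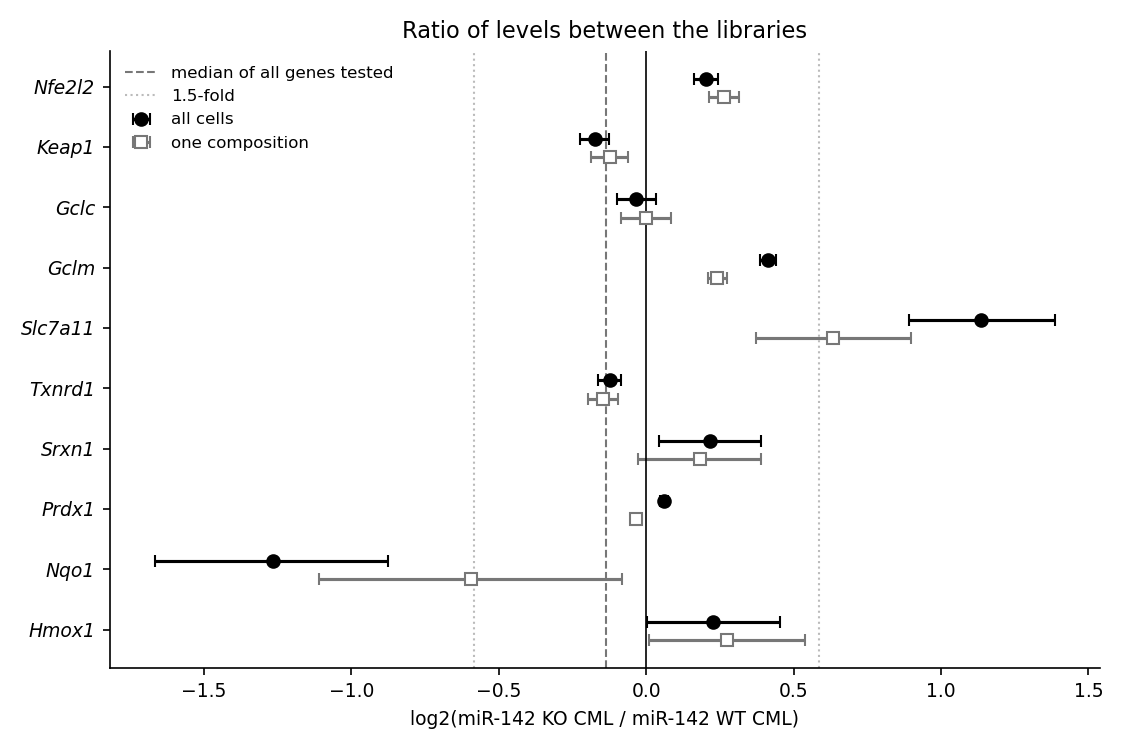
Log2 ratio of miR-142 KO CML over miR-142 WT CML for each gene (horizontal axis), over all cells (black circles) and with the 6 compared groups weighted to the mean of both libraries (open squares), with 95% intervals for counting error. The dashed line is the median of all tested genes (-0.13) and the dotted lines mark 1.5-fold; Slc7a11 and Nqo1 moved toward 0 under the weighting, to 0.63 and -0.60.

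Of the genes of glutathione synthesis, Gclc and Gclm encode the catalytic and the modifier subunit of glutamate-cysteine ligase, the rate-limiting enzyme, and Slc7a11 encodes the light chain of the cystine/glutamate exchanger that brings in its substrate. Gclc (chr9:77754535-77794485, plus strand) was even: 3383 UMIs and 24.5 CPM (23.7 to 25.3) in WT, 3791 UMIs and 23.9 CPM (23.2 to 24.7) in KO, log2 -0.03 (-0.10 to 0.03). It was higher in KO in 3 of 6 groups and lower in 3, each with an interval that held 0, and ranged only from 23.1 to 26.5 CPM over the KO groups and from 23.4 to 25.5 CPM over the WT groups.

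Gclm (chr3:122245557-122270732, plus strand) parted from its partner subunit. It had 18877 UMIs in WT (137 CPM, 135 to 139) and 28828 in KO (182 CPM, 180 to 184), a log2 ratio of 0.41 (0.39 to 0.44) above 92.9% of tested genes. At equal depth 62.9% of WT cells (61.6% to 64.2%) against 69.6% of those in KO (68.4% to 70.8%) had a UMI. Free RNA moved the same way, at 92.3 CPM in WT against 125 CPM in KO, and its part in the difference was not tested.

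Within groups the Gclm ratio was highest in granule-high cells, though the interval of lymphoid-primed-like cells overlapped theirs. Granule-high cells had 150 CPM in WT against 196 CPM in KO (0.38, 0.35 to 0.42), and lymphoid-primed-like cells 101 and 126 CPM (0.32, 0.18 to 0.45). Ungated cells had 128 and 136 CPM (0.09, 0.02 to 0.17). HSC-like cells had 150 and 165 CPM (0.14, -0.02 to 0.30), and in megakaryocyte-primed-like and mast/basophil-like cells the log2 ratios were 0.02 and 0.04 with intervals that held 0. The direction in those last groups turned under other gates: -0.21 in megakaryocyte-primed-like cells with all gates at 2 times the UMIs, and -0.43 in mast/basophil-like cells that passed no other gate. Granule-high cells were also split by neutrophil and monocyte genes, a split made after the data were seen. Neutrophil-leaning cells had 167 CPM in WT against 212 CPM in KO (0.34, 0.27 to 0.42). Monocyte-leaning cells had 148 and 169 CPM (0.19, 0.14 to 0.24), and cells leaning neither way 141 and 169 CPM (0.26, 0.14 to 0.38). Each ratio lay below the 0.38 of the whole gate. The neutrophil-leaning cells numbered 153 in WT and 1827 in KO.

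Slc7a11 (chr3:49892526-50443614, minus strand) was scarce, with 192 UMIs in WT (1.39 CPM, 1.20 to 1.6) and 484 in KO (3.05 CPM, 2.79 to 3.34). The log2 ratio of 1.14 (0.89 to 1.39) was above 98.3% of tested genes. It was found in few cells, 0.858% of WT cells (0.629% to 1.14%) against 1.91% of those in KO (1.56% to 2.30%) at equal depth, or 2.57% and 6.08% before thinning. The 10 cells with most UMIs carried 24.5% of its UMIs in WT and 15.3% in KO, with up to 16 and 15 in a cell. Free RNA held 3 UMIs (0.286 CPM) in WT and 20 UMIs (1.39 CPM) in KO.

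Granule-high cells held most of the Slc7a11 UMIs, 63.5% in WT and 79.1% in KO, at 2.30 CPM and 3.23 CPM, a log2 ratio of 0.49 (0.19 to 0.79). With all gates at 2 times the UMIs this ratio was 0.30 and its interval held 0. In the split of these cells used for Gclm no class had an interval above 0: monocyte-leaning cells had 2.05 and 1.41 CPM (80 and 44 UMIs; -0.54, -1.11 to 0.007), neutrophil-leaning cells 3.32 and 4.22 CPM (28 and 315 UMIs; 0.34, -0.22 to 0.96) and cells leaning neither way 2.56 and 1.91 CPM (14 and 24 UMIs; -0.42, -1.43 to 0.65). The highest level stood apart from the others in KO, and in WT it overlapped those of granule-high and HSC-like cells. It was in mast/basophil-like cells, at 3.22 CPM (22 UMIs) in WT against 9.0 CPM (74 UMIs) in KO, log2 1.48 (0.78 to 2.24). A split of that gate by its own markers, also made after the data were seen, gave 2.06 and 12.8 CPM in mast-leaning cells (8 and 52 UMIs in 212 and 200 cells; log2 2.64, 1.55 to 3.92) and 4.90 and 5.08 CPM in basophil-leaning cells (14 and 20 UMIs). The ratio in the basophil-leaning cells was 0.05, with an interval that held 0 (-1.01 to 1.15). Mast- and basophil-leaning cells stood apart in KO (intervals 9.58 to 16.8 and 3.10 to 7.84 CPM). In WT they overlapped (0.89 to 4.06 and 2.68 to 8.22 CPM), so an uneven spread inside the gate was seen in KO alone. Ungated cells had 0.430 and 0.954 CPM (17 and 14 UMIs; 1.15, 0.02 to 2.26), and the interval held 0 (0.85, -0.22 to 1.87) when Hlf was left out of the HSC-like gate. In lymphoid-primed-like, HSC-like and megakaryocyte-primed-like cells it had 1 to 20 UMIs per library and every interval held 0.

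**Figure D3:**
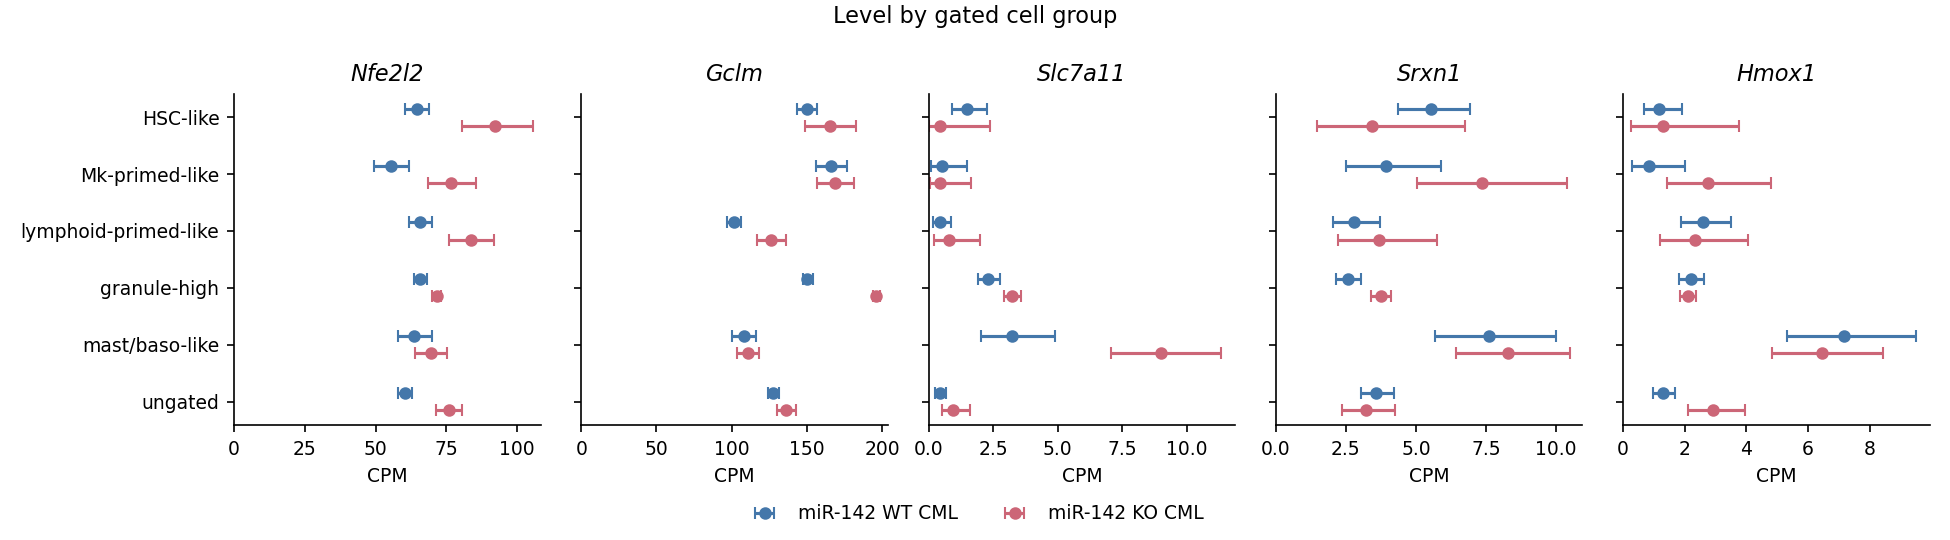
Level in CPM (horizontal axes, starting at 0) of Nfe2l2, Gclm, Slc7a11, Srxn1 and Hmox1 in the 6 gated groups compared, miR-142 WT CML in blue and miR-142 KO CML in red, with exact Poisson 95% intervals. Nfe2l2 was higher in KO in all 6 groups (by 0.12 to 0.52 on the log2 scale), while Slc7a11 parted most in mast/basophil-like cells (3.22 and 9.0 CPM).

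Among the thioredoxin genes, Txnrd1 encodes the cytosolic thioredoxin reductase, which uses NADPH to keep thioredoxin reduced. Txnrd1 (chr10:82833951-82897712, plus strand) had 9993 UMIs in WT (72.3 CPM, 70.9 to 73.7) and 10512 in KO (66.3 CPM, 65.1 to 67.6). Its log2 ratio of -0.12 (-0.16 to -0.08) was that of the middle of all genes, with 51.2% below it. It was lower in KO in 4 of 6 groups, with the interval off 0 in granule-high cells (79.1 and 67.4 CPM) and lymphoid-primed-like cells (74.1 and 63.7 CPM), though in the second not with all gates at 2 times the UMIs (-0.37, -0.76 to 0.005). HSC-like cells were alike in level, at 67.7 and 68.0 CPM (0.01, -0.25 to 0.25).

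Srxn1 encodes sulfiredoxin, which repairs over-oxidized peroxiredoxins. Srxn1 (chr2:152105516-152111376, plus strand) had 482 UMIs in WT (3.49 CPM, 3.18 to 3.81) and 642 in KO (4.05 CPM, 3.74 to 4.38), log2 0.22 (0.04 to 0.39). The difference was seen in granule-high cells, at 2.57 and 3.74 CPM (0.54, 0.26 to 0.83), and in megakaryocyte-primed-like cells, at 3.93 and 7.35 CPM (23 and 32 UMIs; 0.90, 0.09 to 1.74). The second of these held 0 under both other gate settings, at 1.01 (-0.26 to 2.42) and 0.78 (-0.23 to 1.82). It was not detectable in the other 4 groups, and HSC-like cells leaned the other way, at 5.53 CPM (75 UMIs) and 3.42 CPM (8 UMIs), with an interval of -1.96 to 0.36. With the groups weighted alike, the ratio was 0.18 and its interval held 0 (-0.03 to 0.39).

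Prdx1 encodes an abundant peroxiredoxin that removes hydrogen peroxide. Prdx1 (chr4:116685544-116700822, plus strand) had 86423 UMIs in WT (625 CPM, 621 to 630) and 103372 in KO (652 CPM, 648 to 656), log2 0.06 (0.05 to 0.07), and 96.9% and 97.4% of cells had a UMI at equal depth. Inside groups it was lower in KO in granule-high cells, at 710 and 679 CPM (-0.06, -0.08 to -0.05), and in mast/basophil-like cells, at 603 and 514 CPM (-0.23, -0.29 to -0.17), and its interval held 0 in the other 4. Its level followed the cell cycle classes: cells with G2/M genes had 665 CPM in WT and 686 in KO, cells with S genes 668 and 698, and cells with neither 460 and 526. HSC-like cells were lowest in both libraries, at 469 and 480 CPM, though in KO they overlapped mast/basophil-like cells. Free RNA held as much Prdx1 as the cells, 651 CPM in WT against 725 CPM in KO.

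The ROS scavengers followed by the study, NQO-1 and HO-1, had few UMIs in both libraries. Nqo1 (chr8:107388225-107403206, minus strand), which encodes the NADPH-dependent quinone reductase, had 170 UMIs in WT (1.23 CPM, 1.05 to 1.43) and 81 in KO (0.511 CPM, 0.406 to 0.635). The log2 ratio was -1.27 (-1.67 to -0.88), below that of all but 3.97% of tested genes. At equal depth 1.12% of WT cells (0.855% to 1.44%) against 0.421% of those in KO (0.267% to 0.632%) had a UMI, where free RNA stood at 0.952 CPM (10 UMIs) and 0.485 CPM (7 UMIs). These levels in cells were thus near those of free RNA.

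Inside the gated groups the lower Nqo1 level was seen in ungated cells, at 1.67 CPM (66 UMIs) in WT against 0.477 CPM (7 UMIs) in KO, log2 -1.81 (-3.18 to -0.68). In the other 5 groups every interval held 0, with 2.73 CPM (37 UMIs) and 2.14 CPM (5 UMIs) in HSC-like cells and 0.245 CPM (13 UMIs) and 0.337 CPM (40 UMIs) in granule-high cells. Granule-high cells had the lowest level in both libraries, overlapping ungated and lymphoid-primed-like cells in KO. They held 7.65% of the Nqo1 UMIs in WT and 49.4% in KO. The weighting to equal group shares took the ratio to -0.60 (-1.11 to -0.08). At these counts a difference within groups other than the ungated cells was not detectable.

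Hmox1 (chr8:75093621-75100589, plus strand) encodes heme oxygenase 1, which breaks down heme to biliverdin, iron and carbon monoxide. It had 286 UMIs in WT (2.07 CPM, 1.84 to 2.32) and 384 in KO (2.42 CPM, 2.19 to 2.68), log2 0.23 with an interval that barely left 0 (0.003 to 0.45). Over 11 alternatives the ratio ran from 0.04 to 0.58. The high end came with each cell given the same weight. The low end came with at least 16000 UMIs per cell, where the interval held 0 (-0.22 to 0.30). The interval also held 0 with under 5% mitochondrial UMIs, without likely doublets, and with totals that left out mitochondrial and ribosomal protein genes. It stayed above 0 in the others. With each cell at the same weight, however, the interval was the summed-count one moved to the new ratio. It thus did not measure the error of that setting. At equal depth 1.68% of WT cells (1.35% to 2.06%) against 2.13% of those in KO (1.76% to 2.54%) had a UMI, intervals that overlap, and free RNA stood at 2.19 and 2.36 CPM, as high as the cells.

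Hmox1 was highest in mast/basophil-like cells of both libraries, at 7.18 CPM (49 UMIs) in WT against 6.45 CPM (53 UMIs) in KO, where it did not part the libraries (-0.16, -0.74 to 0.44). It was higher in KO in ungated cells, at 1.29 CPM (51 UMIs) and 2.93 CPM (43 UMIs), log2 1.18 (0.56 to 1.80), and in megakaryocyte-primed-like cells, at 0.854 CPM (5 UMIs) and 2.76 CPM (12 UMIs), log2 1.69 (0.08 to 3.55). The second interval held 0 in cells that passed no other gate (1.56, -0.28 to 3.71). Granule-high cells were even, at 2.19 and 2.09 CPM (-0.07, -0.39 to 0.27). Among ungated cells the higher level was found in those with neither G2/M nor S genes, at 1.75 CPM (15 UMIs) and 5.26 CPM (28 UMIs), log2 1.58 (0.63 to 2.59).

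Across the 6 groups, then, Nfe2l2 and Gclm were higher in KO in 6 of 6 and Keap1 in 0 of 6 under the main gates, with the turns given above in mast/basophil-like or megakaryocyte-primed-like cells. The other targets split: Slc7a11 and Srxn1 were higher in 4, Gclc, Hmox1 and Prdx1 in 3, and Nqo1 and Txnrd1 in 2. Medians over all genes of at least 10 CPM inside the groups lay between -0.07 and -0.02, so the shift seen over all cells was smaller within groups.

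A wider list of 58 NRF2 pathway genes was read the same way, and 56 passed the filter. Of these, 6 were past 1.5-fold higher in KO and 3 lower, 10.7% and 5.36% of the list, beside 4.56% and 14.5% over all tested genes, and the list's median log2 ratio was 0.02. By role, the medians were 0.36 for glutathione synthesis and use (13 genes), 0.35 for NADPH supply (5 tested), -0.005 for thioredoxin and peroxiredoxin (10), -0.01 for heme and iron handling (7), -0.10 for NRF2 partners, repressors and turnover (10), -0.20 for detoxification and efflux (8 tested) and -0.32 for superoxide and peroxide removal (3).

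Of the 6 genes past the fold and higher, 3 use or recycle glutathione. Gstm1, a glutathione S-transferase, was at 93.9 CPM in WT against 273 CPM in KO (log2 1.54, 1.51 to 1.57). Gsr, which regenerates reduced glutathione from its oxidized form, was at 92.7 and 197 CPM (1.09, 1.06 to 1.12). Mgst2, a microsomal transferase, was at 19.7 and 41.1 CPM (1.06, 0.995 to 1.13). These 3 members of the 13 were joined by Slc40a1, the iron exporter (0.398 and 1.17 CPM, 55 and 186 UMIs; 1.56, 1.12 to 2.02), Idh1, a cytosolic source of NADPH (29.1 and 52.8 CPM; 0.86, 0.81 to 0.92), and Prdx5 (177 and 289 CPM; 0.71, 0.69 to 0.73). Lower in KO were Bach2, a repressor related to the NRF2 antagonist BACH1 (5.81 and 2.23 CPM; -1.38, -1.57 to -1.20), Osgin1 (1.68 and 0.852 CPM; -0.98, -1.30 to -0.67) and Prdx4, the peroxiredoxin of the endoplasmic reticulum (76.2 and 43.0 CPM; -0.82, -0.87 to -0.78).

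Much of this moved with the groups. Gsr in granule-high cells was at 157 CPM in WT against 236 CPM in KO (0.59, 0.55 to 0.62), and in the other groups it lay between 38 and 135 CPM with ratios of 0.02 to 0.49. Gstm1 was 144 and 332 CPM in granule-high cells (1.21, 1.17 to 1.24) but 82.8 and 67.1 CPM in HSC-like cells (-0.30, -0.55 to -0.06). Mgst2, Prdx5 and Idh1 were each higher in KO in 6 of 6 groups, with intervals off 0 in 4, 6 and 5 of them, and Bach2 was lower in 6 of 6, with 3 off 0. With the groups weighted alike the log2 ratio was 0.87 for Gstm1, 0.47 for Gsr, 0.71 for Mgst2, 0.45 for Prdx5 and 0.40 for Idh1. It was -0.50 for Bach2, -0.21 for Prdx4 and -0.59 for Osgin1. Slc40a1 went the other way and rose, from 1.56 over all cells to 1.82. Gstm1, Mgst2, Slc40a1 and Osgin1 thus stayed past 1.5-fold.

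Among the NRF2 partners and gatekeepers, Bach2 was the 1 of 10 past the fold. Mafg, a small MAF partner, had a log2 ratio of 0.17 (40.8 and 46.0 CPM), Bach1, which competes for the same elements, -0.26 (18.1 and 15.2 CPM), and Cul3, the ligase scaffold, -0.13 (67.4 and 61.8 CPM). Sqstm1, which encodes p62, a KEAP1 binder, was at 32.5 and 36.3 CPM (0.16, 0.10 to 0.22) and was higher in KO in 6 of 6 groups with 5 intervals off 0, most in mast/basophil-like cells, at 98.9 and 140 CPM (0.50, 0.36 to 0.64). Slc3a2, the heavy chain that pairs with SLC7A11, was even over all cells, at 117 and 115 CPM (-0.02, -0.05 to 0.01), and in mast/basophil-like cells, where Slc7a11 was highest, it was at 232 and 281 CPM (0.28, 0.19 to 0.37). Txn1, thioredoxin itself, was at 698 and 778 CPM (0.16, 0.14 to 0.17), yet was higher in KO in 1 of 6 groups, the granule-high cells. G6pdx, which opens the NADPH-producing pentose phosphate pathway, was at 27.0 and 21.3 CPM (-0.35, -0.41 to -0.28), and all 6 groups had less of it in KO, most in granule-high cells (39.5 and 23.0 CPM; -0.78, -0.86 to -0.70).

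**Figure D4:**
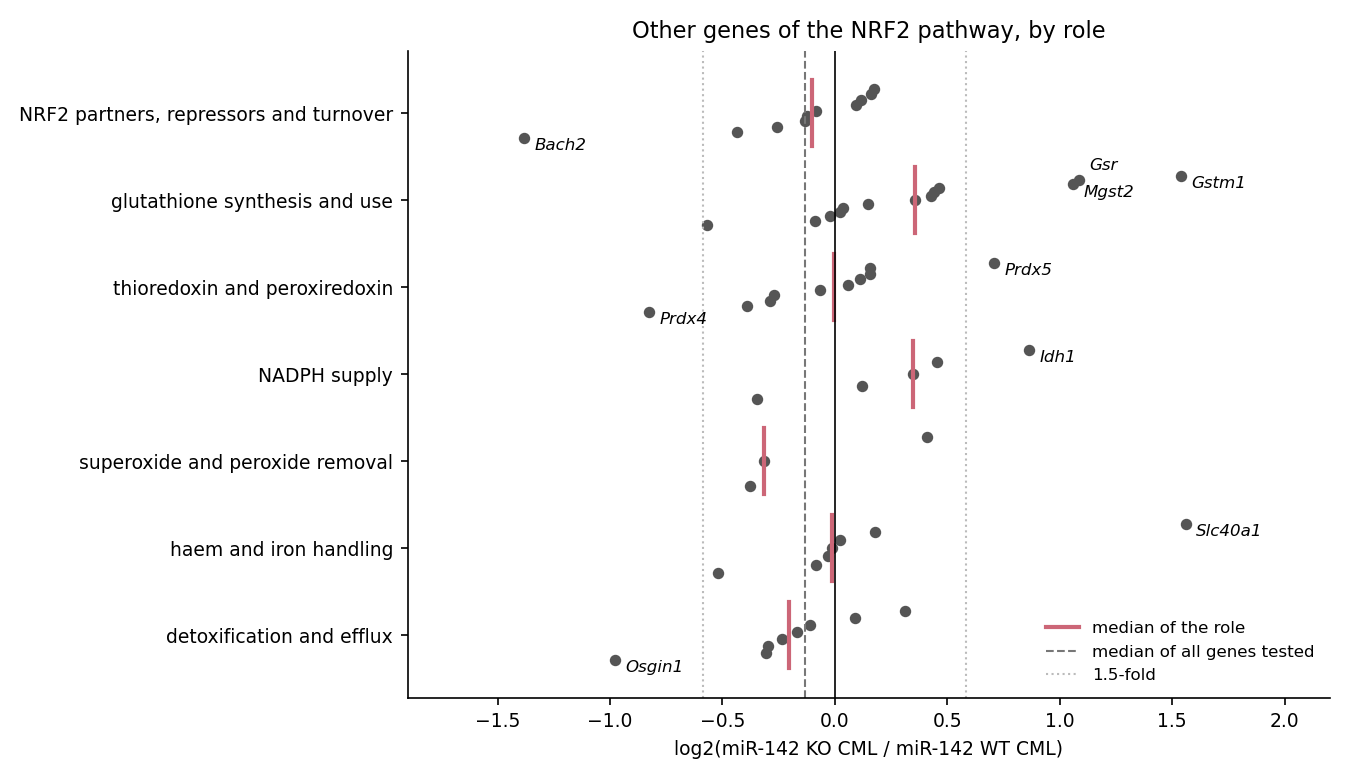
Log2 ratio of miR-142 KO CML over miR-142 WT CML over all cells (horizontal axis) for the 56 tested genes of the wider pathway list, in rows by role; each point is a gene, the red bar is the median of the role, the dashed line the median of all tested genes (-0.13) and the dotted lines 1.5-fold. The 9 named genes lie past 1.5-fold with an interval off 0, and the glutathione row has its median at 0.36.

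The genes whose pattern over the 12 pools (6 groups in 2 libraries) was most like that of Nfe2l2 were Cd300a, Btaf1, Rnaset2a, Tm2d2 and Mgst3, among 5375 genes of at least 20 CPM, with Pearson r of log2(CPM + 1) of 0.92, 0.90, 0.88, 0.88 and 0.88. The 12 pools share 2 libraries, so these values describe the pools and have no test. Since Nfe2l2 was higher in KO in each group, genes picked this way tend to be higher in KO too. Over all cells Mgst3 was at 28.1 and 31.1 CPM and Rnaset2a at 31.5 and 49.5 CPM.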

How the data were processed

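The deposited values were raw UMI counts per gene and barcode, which per the study methods and the submitters' processing notes the authors made with Cell Ranger 6.1.2 on mm10 (the file headers name Cell Ranger 4). The matrices held 1957898 WT and 2055088 KO barcodes, cells and free RNA alike. The 3′ kit reads a gene near its end, so levels were compared within a gene only. Overlapping same-strand genes (for example Eid3 at Txnrd1) could share reads. About 8000 cells were captured per sample; the study's limits (over 300 UMIs, under 10% mitochondrial) leave 8525 WT and 7099 KO barcodes, and at least 8000 UMIs leaves 5363 and 5458. No doublet caller was run: 480 WT (8.95%) and 655 KO cells (12.0%) passed 2 or more lineage gates, were kept and took the first gate. An alternative left out these likely doublets and the top 5% of cells by UMIs in each library, which kept 4634 WT and 4551 KO cells. Other barcodes of 1000 to 7999 UMIs held 5094604 and 6231556 UMIs and were not used as cells.

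Counts were summed over the cells of a library or group and divided by their total (CPM), with exact Poisson 95% intervals; ratios carry exact conditional binomial intervals, shares exact (Clopper-Pearson) ones, and weighted ratios normal ones. Gates asked for 3 UMIs over 2 genes of a marker list (10 for antibody-secreting-like; 20 over 3 genes for granule-high) in cells thinned to 8000 UMIs, where levels used all UMIs. Antibody-secreting-like (40 and 0 cells), macrophage-like (2 and 2), innate lymphoid-like (19 and 185) and erythroid-primed-like cells (52 and 31) were too few to compare. Of the markers, Gp6 alone had no UMI. Called means past 1.5-fold with an interval off 0. Named were all 10 genes, pathway genes past the fold, 8 fixed pathway genes and the 5 genes nearest Nfe2l2 in pattern. The members and lists were chosen with earlier results of these data known. Intervals were tested on simulated data. Python 3.11.15, numpy 2.4.6, scipy 1.17.1 and pandas 2.3.3 were used; no p-value was computed.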

Additional observations from a re-analysis of the deposited data

Results flagged for a closer look

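Slc3a2 had opposite directions in gated groups, higher in KO in mast/basophil-like cells (log2 ratio 0.28) and lower in megakaryocyte-primed-like cells (-0.35), each with an interval off 0. Gstm1 was higher in granule-high cells (1.21) and lower in HSC-like cells (-0.30). Txn1 was higher in granule-high cells (0.14) and lower in megakaryocyte-primed-like cells (-0.27). These differences between groups were not tested, since each group of cells came from the same 2 libraries.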

How the results depend on the processing

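No paired analysis was possible because each group had 1 library. The median log2 ratio of the 10 genes, 0.13, was 0.039 with at least 16000 UMIs per cell, 0.10 without likely doublets, 0.21 with size factors, 0.088 with each cell at equal weight and 0.091 with the groups weighted to equal shares. The count past 1.5-fold, 2 of 10, was 0 among genes of at least 5 CPM, since Slc7a11 and Nqo1 are below that level. Among all genes of at least 5 CPM, 3.12% were called higher and 7.11% lower. The count of 9 pathway genes of 56 was 4 with the groups weighted to equal shares, beside 4.74% of all tested genes higher and 5.96% lower. At 2-fold it was 5, beside 2.10% and 5.97%. At a limit midway between no change and 1.5-fold it was 22, beside 9.31% and 29.9%. The other 32 values of these summaries stayed within 1.5 times or within their error. Of the 10 genes, neither of those past 1.5-fold turned its direction over 11 alternatives (the pathway genes were run singly under the weighting alone): Slc7a11 ranged from 0.63 to 1.38 and Nqo1 from -1.62 to -0.60, and the low ends in size of both came from the weighting. Nfe2l2 ranged from 0.18 to 0.28 and Gclm from 0.24 to 0.49, while Gclc took the other sign in 3 of 11 and Prdx1 in 1 of 11. Keap1's share of cells turned from -2.94 points to 1.96 points without thinning. What limits these values is 1 library per group: mice, batch and genotype cannot be told apart. Those of the 10 genes that are under 5 CPM rest on at most 642 UMIs in a library.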

Other observations

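Barcodes of 1000 to 7999 UMIs, which were not used as cells, gave another picture for part of the list. Gclc was at 21.4 CPM (109 UMIs) in WT and 37.4 CPM (233 UMIs) in KO there, a log2 ratio of 0.81 (0.47 to 1.15), where the cells had -0.03. Gclm was at 103 and 99.3 CPM (-0.05, -0.22 to 0.12), where the cells had 0.41. Keap1 was at 39.6 and 45.1 CPM with an interval that held 0 (0.19, -0.08 to 0.45), where the cells had -0.17. Nfe2l2 was at 77.5 and 91.3 CPM (0.24, 0.05 to 0.42) and Slc7a11 at 1.57 and 3.37 CPM (8 and 21 UMIs; 1.10, -0.13 to 2.49), ratios near those in cells. Prdx1, at 407 and 346 CPM (-0.24, -0.33 to -0.15), was lower in KO.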
